A study of Mus musculus with 6 samples.

Results

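A group of 10 secreted or granule-stored proteins of inflammation were followed in colon tissue with tumors: S100a8, S100a9, Lcn2, Ltf, Ngp, Mmp8, Lrg1, Saa1, Saa2 and Saa3. The genes were picked by symbol, and all gene probes that carry one of these symbols were taken, which gave 11 probes for 10 genes among 56605 gene probes for 37325 genes. The choice was made with values of the same arrays known, so the differences between the groups are given as a description of these genes and support nothing beyond it. The tissue came from C57BL/6 mice of about 20 g body weight, males bought at 6 to 8 weeks of age. Every mouse, controls included, carried tumors induced by an intraperitoneal injection of AOM (10 μg/g), a carcinogen, and by 2% DSS in the drinking water for 5 days, which injures the colon epithelium and inflames the colon. In the treated group 3 mice were given RG@M-γ-CD by mouth, regorafenib (RG, a multi-kinase inhibitor) held in mannose-modified γ-cyclodextrin, at 30 μg/g of the complex or 10 μg/g RG, and 3 mice were given PBS. Treatment lasted 21 days, and the colons were taken once a further 14 days of observation had passed. Carrier alone and free RG were not analysed here. Each mouse gave 1 one-color Agilent array, so the p-values below measure the spread between mice, and the arrays are called RG1, RG2 and RG3 (RG@M-γ-CD) and PBS1, PBS2 and PBS3.

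The proteins fall into 3 roles. S100a8 and S100a9 pair to form calprotectin, the most abundant protein of the neutrophil cytosol, which chelates zinc and manganese and is measured in stool as a sign of gut inflammation. Lcn2 (lipocalin 2, which captures bacterial siderophores), Ltf (lactoferrin, which binds iron), Ngp (neutrophilic granule protein) and Mmp8 (neutrophil collagenase) are stored in neutrophil granules, and Lcn2 is also made by inflamed gut epithelium. Lrg1 (leucine-rich α2-glycoprotein) and the serum amyloid A proteins Saa1, Saa2 and Saa3 are acute-phase proteins: the liver secretes Saa1 and Saa2 in systemic inflammation, the gut epithelium makes them locally, and Saa3 is made mainly outside the liver. Interleukin-6 family cytokines acting through STAT3, interleukin-1 through NF-κB, and the C/EBP factors are the textbook inducers of this group.

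A level below is the log2 intensity of a probe minus that array's 75th percentile, taken over gene probes, so that 0 means a signal at that percentile, and a difference of 1 means 2-fold. The share of gene probes with a signal well above background ranged from 49.6% to 55.2% between arrays, and no gene spot was saturated. Saa1 and Saa2 lay far above the 75th percentile on all arrays, and all members but Ngp and Mmp8 were well above background on all 6. Ngp reached that mark on none of them and was not tested, so 9 of the 10 genes were tested among 19090. In whole tissue, fewer cells of a type and less RNA per cell cannot be told apart.

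The groups follow the labels, which give arrays 5, 6 and 7 to RG1, RG2 and RG3 and arrays 8, 10 and 11 to PBS1, PBS2 and PBS3. A clustered heat map among the study's supplements sets arrays 6, 7 and 8 (RG2, RG3 and PBS1) against arrays 5, 10 and 11 (RG1, PBS2 and PBS3) and names no condition, so the differences of the members and the medians of the gene lists are also given for that split, as arrays 6, 7 and 8 minus arrays 5, 10 and 11. All 6 arrays share 1 slide, with RG1, RG2, RG3 and PBS1 in row 1 and PBS2 and PBS3 in row 2. RG1 stands apart in some of its tissue markers. The surface colonocyte transporter Slc26a3 was at −2.36 on RG1 and between 0.88 and 3.09 on the other arrays, and the water channel Aqp8 at −0.12 against 3.06 to 4.57. Muc2 (7.47) was lowest on RG1 too, while Cdx1 was at 5.81 on RG1 and on PBS1 alike. Other colon epithelium markers did not set RG1 apart in this way. Epcam was highest on RG1 (5.26), and Car1 (3.10), Cdx2 (2.09) and Krt20 (5.94) were lowest on PBS1. Smooth muscle markers also split the RG@M-γ-CD group: the log2 of their summed level was 5.95 on RG1, 8.66 on RG2 and 8.94 on RG3, and 6.84 to 7.17 on the PBS arrays.

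The sequences that report the members are of 2 kinds, the array probes that gave the values and the promoters of the genes that are induced together. Of the 11 probes, each 60 bases, 5 are given here, from 1 calprotectin subunit, 2 granule proteins and 2 serum amyloid genes, as the scanner files give them.
S100a8 A_51_P256827: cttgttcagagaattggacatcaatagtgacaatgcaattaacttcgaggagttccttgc
Lcn2 A_51_P510156: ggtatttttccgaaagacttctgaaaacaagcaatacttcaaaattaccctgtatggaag
Ltf A_52_P15388: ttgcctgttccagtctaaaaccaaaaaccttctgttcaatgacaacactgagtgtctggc
Saa1 A_52_P318673: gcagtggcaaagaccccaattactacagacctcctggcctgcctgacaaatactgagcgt
Saa3 A_66_P106131: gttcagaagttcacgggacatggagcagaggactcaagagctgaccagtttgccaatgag
These probes lie, on the mm9 build of the files, at chr3:90473778-90473837 on the plus strand (S100a8), chr2:32241037-32241281 on the minus strand (Lcn2), chr9:110942873-110942932 on the plus strand (Ltf), and chr7:53996070-53996129 (Saa1) and chr7:53967559-53967618 (Saa3), both on the minus strand. The Lcn2 probe covers 245 bases of the genome with its 60 bases, so it crosses a splice junction. Across the 55 pairs of member probes the longest run of bases in common was 9, and the Saa1 and Saa2 probes shared a run of 5. Whether a probe also binds the transcript of a close relative was not tested, since transcript sequences were not used here.

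Promoters were read from RefSeq (GRCm38.p6), where all 10 genes matched. The 250 bases before the transcription start were searched on both strands for the C/EBP motif TTNNGNAA, the STAT motif TTCNNNGAA and the usual NF-κB consensus. Shown are 6 promoters, those of calprotectin, Lcn2 and the 3 serum amyloid genes, with each match to the C/EBP motif in capitals.
S100a8: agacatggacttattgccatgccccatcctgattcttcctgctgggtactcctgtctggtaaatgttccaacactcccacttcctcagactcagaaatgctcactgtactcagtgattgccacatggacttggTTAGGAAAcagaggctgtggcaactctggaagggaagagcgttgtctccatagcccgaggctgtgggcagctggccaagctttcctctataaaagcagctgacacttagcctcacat
S100a9: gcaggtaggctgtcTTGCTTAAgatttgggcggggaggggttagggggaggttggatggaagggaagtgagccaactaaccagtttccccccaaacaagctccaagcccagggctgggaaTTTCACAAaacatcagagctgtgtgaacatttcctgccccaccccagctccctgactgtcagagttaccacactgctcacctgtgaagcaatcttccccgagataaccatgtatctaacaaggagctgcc
Lcn2: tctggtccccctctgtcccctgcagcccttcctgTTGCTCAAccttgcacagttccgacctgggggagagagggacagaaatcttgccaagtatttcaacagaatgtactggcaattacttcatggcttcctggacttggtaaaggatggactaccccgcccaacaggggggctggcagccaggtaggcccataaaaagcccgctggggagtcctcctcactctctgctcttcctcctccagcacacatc
Saa1: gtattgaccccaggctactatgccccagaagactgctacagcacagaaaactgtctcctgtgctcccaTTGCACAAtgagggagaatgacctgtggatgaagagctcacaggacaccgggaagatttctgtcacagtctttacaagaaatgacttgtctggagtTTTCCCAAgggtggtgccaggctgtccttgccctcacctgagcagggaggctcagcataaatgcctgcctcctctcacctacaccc
Saa2: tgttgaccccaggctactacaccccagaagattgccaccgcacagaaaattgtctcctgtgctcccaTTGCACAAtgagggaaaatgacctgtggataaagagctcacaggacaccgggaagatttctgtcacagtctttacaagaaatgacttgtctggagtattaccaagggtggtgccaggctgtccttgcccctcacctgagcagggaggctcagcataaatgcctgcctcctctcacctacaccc
Saa3: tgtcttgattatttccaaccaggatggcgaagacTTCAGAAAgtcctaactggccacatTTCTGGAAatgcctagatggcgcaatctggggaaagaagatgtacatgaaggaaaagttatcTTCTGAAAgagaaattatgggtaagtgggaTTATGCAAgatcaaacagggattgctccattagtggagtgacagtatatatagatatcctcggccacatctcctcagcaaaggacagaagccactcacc
The windows are chr3:90668821-90669070 on the plus strand (S100a8), chr3:90695722-90695971 on the minus strand (S100a9), chr2:32387740-32387989 on the minus strand (Lcn2), chr7:46742981-46743230 on the minus strand (Saa1), chr7:46751583-46751832 on the plus strand (Saa2) and chr7:46715677-46715926 on the minus strand (Saa3). S100a8 and S100a9 lie near each other on chromosome 3, and the 3 serum amyloid genes lie together on chromosome 7, with Saa1 and Saa2 head to head. A C/EBP match was found in 9 of the 10 member promoters, all but that of Lrg1, and in 36.8% of 32851 promoter windows. Saa1 and Saa2 hold the same match, TTGCACAA, at 182 and 183 bases before the start, and their windows are 94.8% identical in a global alignment, whereas Saa3 is 48.9% identical to Saa1 and holds 4 matches elsewhere. That value for Saa3 lies among those of unrelated pairs of these windows, such as 49.5% for Saa1 and S100a8. No STAT or NF-κB match was found in the 10 windows (7.02% and 7.25% of all windows hold one), which says only that these letters are not there. The motifs may overlap one another, and a match is a description of the letters, not of a bound site.

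Calprotectin showed the widest span of the members. S100a8 was at 3.24, −2.24 and −0.80 on RG1, RG2 and RG3 and at 2.86, 1.33 and 3.56 on PBS1, PBS2 and PBS3. RG2 and RG3 lay below every PBS array, while RG1 lay within the PBS range, so the groups overlap. From PBS3 down to RG2 the signal of this 1 probe fell 55.9-fold. S100a9 was at 5.73, 0.95 and 2.02 on the RG@M-γ-CD arrays and at 4.83, 4.07 and 5.06 on the PBS arrays. Here RG1 was the highest of all 6 arrays and RG2 the lowest, 27.5-fold apart. In the mean over 3 arrays, S100a8 was 5.73-fold lower in RG@M-γ-CD (log2 difference −2.52, SE 1.40, 95% confidence interval −5.88 to 0.84) and S100a9 3.36-fold lower (−1.75, SE 1.17, −4.57 to 1.07). Neither passed the test, limma with Benjamini-Hochberg adjustment over all genes tested, with an adjusted p of 1 for each. Both intervals include 0 and also large falls, so the data set no narrow bound. The SD within the RG@M-γ-CD group was 2.84 for S100a8 and 2.51 for S100a9, against 1.14 and 0.52 in PBS. Both subunits followed one another over the arrays (Pearson r = 0.984, n = 6 arrays, a description across both groups). Their probes share no long run of bases, and whether either also binds the transcript of the other gene was not tested.

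**Figure D1:**
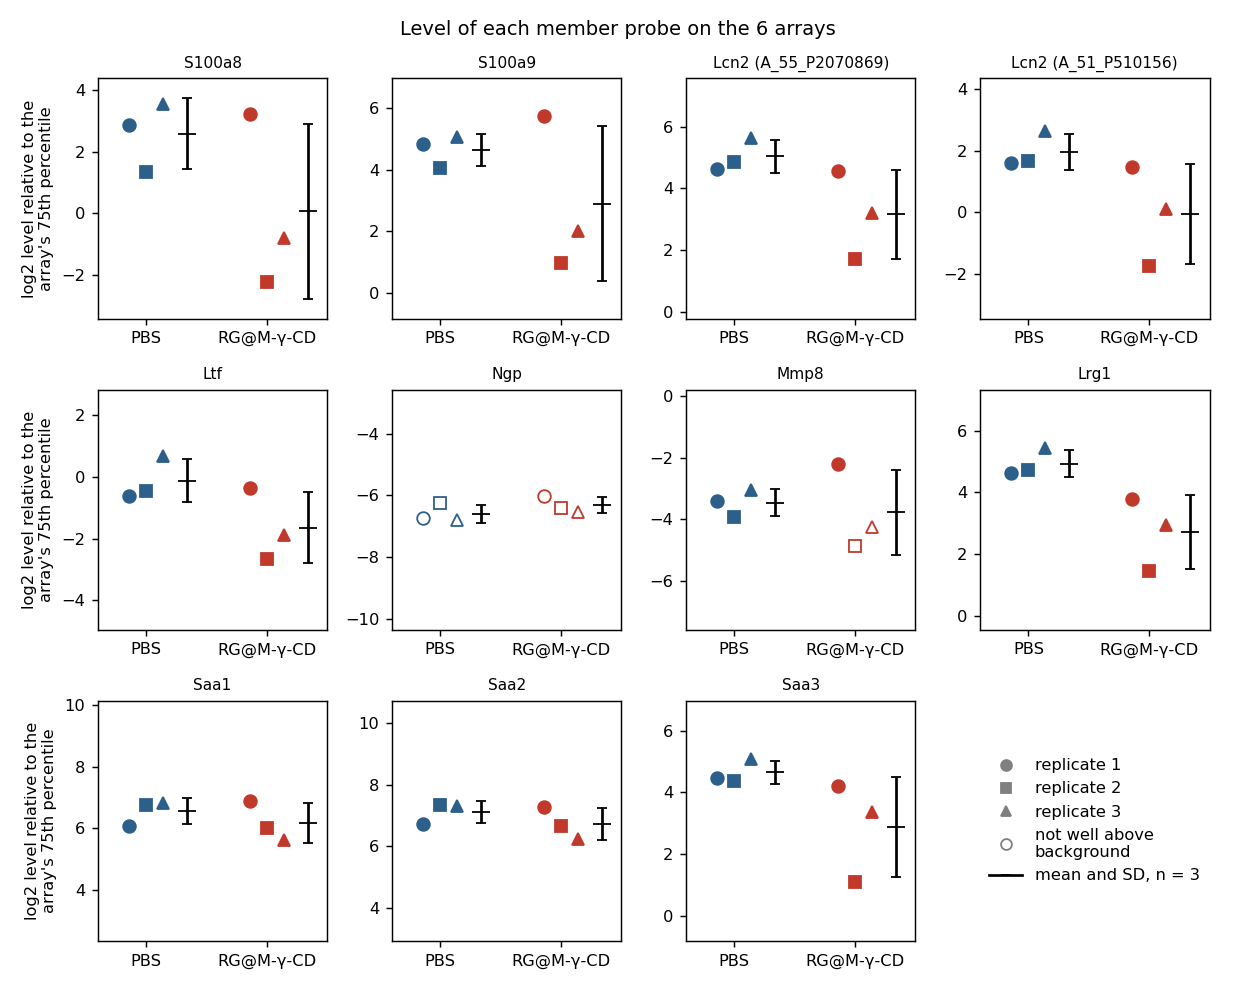
Level of each of the 11 member probes on the 6 arrays, as log2 intensity minus the 75th percentile of the array, with every panel spanning the same number of log2 units. Points are arrays (circle, square and triangle for replicates 1, 2 and 3), open points were not well above background, and bars give the mean and SD of 3 arrays. RG2 (red square) is the lowest array in 7 of the 9 tested genes, and RG1 (red circle) lies near the PBS arrays.

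Among the granule proteins, Lcn2 was measured by 2 probes that gave the same order of groups. By the brighter probe (A_55_P2070869) it was at 4.57, 1.70 and 3.20 on RG1, RG2 and RG3 and at 4.62, 4.86 and 5.64 on the PBS arrays. All 3 RG@M-γ-CD arrays lay below all 3 PBS arrays, with RG1 just under PBS1. The probe printed above (A_51_P510156) was at 1.47, −1.75 and 0.10 against 1.60, 1.67 and 2.64, again without overlap. The difference was −1.88 (SE 0.71, 95% confidence interval −3.59 to −0.18), 3.69-fold lower, by the brighter probe, and −2.03 (SE 0.79), 4.08-fold lower, by the other. By limma the unadjusted p was 0.0352 and the adjusted p 1 for the brighter probe.

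Ltf, the iron-binding protein of the specific granules, was at −0.37, −2.65 and −1.89 on RG1, RG2 and RG3 and at −0.60, −0.44 and 0.69 on the PBS arrays. RG1 was above PBS1 and PBS2, and RG2 and RG3 were below every PBS array. The difference was −1.52 (SE 0.63), 2.86-fold lower, and did not pass the test (limma, unadjusted p = 0.0503, adjusted p = 1). Mmp8, the collagenase, was a dim probe: it was well above background on all 3 PBS arrays but only on 1 of the 3 RG@M-γ-CD arrays, RG1. Its levels were −2.21, −4.85 and −4.26 on RG1, RG2 and RG3 and −3.41, −3.92 and −3.05 on the PBS arrays, so RG1 was the highest array of all. The difference of −0.31 (SE 0.67, 95% confidence interval −1.93 to 1.30) did not pass the test (adjusted p = 1) and turned to 0.22 without RG2. Ngp, whose transcript belongs to neutrophil precursors of the bone marrow, was between −6.53 and −6.02 on the RG@M-γ-CD arrays and between −6.81 and −6.26 on the PBS arrays. As none of these signals was well above background, no fold is given for Ngp.

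The acute-phase proteins split into Lrg1 and Saa3, which ranged widely, and Saa1 and Saa2, which were high on every array. Lrg1 was at 3.78, 1.43 and 2.93 on RG1, RG2 and RG3 and at 4.63, 4.73 and 5.45 on PBS1, PBS2 and PBS3. RG1 was also below every PBS array, and the distance from the highest RG@M-γ-CD array to the lowest PBS array was the widest of the 3 members without overlap. Lrg1 was 4.67-fold lower in RG@M-γ-CD (log2 difference −2.22, SE 0.59, 95% confidence interval −3.65 to −0.80). Its unadjusted p was 0.00826 and its adjusted p 1 in limma, so it did not pass the test over all genes. Saa3 was at 4.20, 1.08 and 3.37 on the RG@M-γ-CD arrays and at 4.48, 4.38 and 5.08 on the PBS arrays. Its groups did not overlap either, but RG1 was only slightly below PBS2. The difference of Saa3 was −1.77 (SE 0.77, 95% confidence interval −3.61 to 0.08), 3.4-fold lower, with an unadjusted p of 0.0578 and an adjusted p of 1 in limma.

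Saa1 was at 6.88, 6.01 and 5.61 on RG1, RG2 and RG3 and at 6.08, 6.77 and 6.83 on the PBS arrays. RG1 was the highest array and RG3 the lowest, and the whole span was 2.41-fold. Saa2 was at 7.26, 6.65 and 6.22 against 6.71, 7.33 and 7.29, with the same lowest array. The differences were −0.39 (SE 0.38, 95% confidence interval −1.29 to 0.51) for Saa1 and −0.40 (SE 0.31, −1.16 to 0.36) for Saa2, both with an adjusted p of 1 in limma. Neither interval reaches a difference of −2.52, the one fitted for S100a8. With the slide row as a block both differences turned, to 0.091 for Saa1 and 0.0013 for Saa2. The row of PBS2 and PBS3 holds no RG@M-γ-CD array, so that fit sets the RG@M-γ-CD arrays against PBS1 alone. In the split of arrays 6, 7 and 8 against arrays 5, 10 and 11, Saa1 was lower by 0.93 and Saa2 by 0.77 on the log2 scale without overlap of the sides (limma, adjusted p = 0.25 and 0.297). Because Saa1 and Saa2 are also liver products, hepatocyte markers were looked at beside them. Of 8 such markers 7 were tested, and the log2 of their summed level was 3.18 to 3.96 on the RG@M-γ-CD arrays and 2.95 to 3.77 on the PBS arrays, with Alb at −0.73 to 3.34 and 1.31 to 2.73. The single markers went both ways, 3 with a positive difference, among them Ttr (0.67) and Ahsg (0.59), and 4 with a negative one. Tat differed by −0.90 (unadjusted p = 0.0187 in limma), without overlap of the groups. Of all genes 1.33% were lower at an unadjusted p below 0.05 in limma, and 2.19% were lower without overlap. The part of the hepatocyte markers in the Saa1 and Saa2 levels was not tested.

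Of the 9 members, limma called 0 at an adjusted p of 0.05, beside 0% of the 19090 genes, and the methods' t-test also called 0. At an unadjusted p below 0.05, 2 of 9 were called, Lcn2 and Lrg1, both lower, where 2.19% of all genes were called in either direction, 1.33% lower and 0.864% higher. These same 2 were also at least 2-fold lower, a pair of criteria that 0.388% of all genes met. All 9 differences were negative (52.8% of all genes), 6 of 9 were at least 2-fold lower (1.13%), and in 3 of 9, Lcn2, Lrg1 and Saa3, all RG@M-γ-CD arrays lay below all PBS arrays (2.19%). In 0 of 9 did they all lie above (2.38%). As the genes were chosen with this contrast known, nothing is read from these shares. The median difference of the members was −1.75, against −0.012 over all genes tested.

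The members varied widely from mouse to mouse. Their median SD over the 6 arrays was 1.41, against 0.27 over all genes tested, and 6 of 9 had an SD of at least 1, against 4.19% of all genes. RG2 was the lowest array for 7 members and RG3 for Saa1 and Saa2, and whichever of RG2 and RG3 was not lowest came next, so these 2 arrays held the lowest and second lowest level of all 9. RG1 lay above the PBS mean in 5 of 9 and was the highest array in 3 (S100a9, Mmp8 and Saa1). PBS3 was the highest array in 5 and lay above the PBS mean in all 9. RG1 too lay below every PBS array only for the 3 genes without overlap, Lcn2, Lrg1 and Saa3.

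Leaving RG1 out, the median difference of the members was −2.43 in place of −1.75, and leaving RG2 out, −0.86. Without RG2, S100a8 differed by −1.36, S100a9 by −0.78, Lcn2 by −1.15, Ltf by −1.01 and Saa3 by −0.86, each over 1.5 times smaller, and Lrg1 by −1.58. Without RG1, S100a8 was 17.2-fold lower (−4.10, SE 0.74) and S100a9 8.98-fold lower (−3.17, SE 0.43). S100a9 then passed the test (limma, adjusted p = 0.0402), and S100a8 did not (adjusted p = 0.076), nor did Lrg1 (−2.76, adjusted p = 0.0731) or Lcn2 (−2.59, adjusted p = 0.0954). That is 1 of 9 members, beside 1.04% of 19466 genes called in either direction and 0.2% called lower. At an unadjusted p below 0.05 all 9 members were lower without RG1, against 5.42% of all genes. Nothing is read from these shares either, for the same reason.

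With arrays 6, 7 and 8 set against arrays 5, 10 and 11, the members were lower on the first side, by a median of −1.66. RG2 and RG3, which held the lowest and second lowest level of all 9, are on the first side here as in the labelled groups. The direction is therefore no separate result. In this split 0 of 9 members passed the adjusted threshold (0.0259% of 19298 genes did), 4 were lower at an unadjusted p below 0.05 (Lcn2, Ltf, Saa1 and Saa2, against 8.79% of all genes), and 3 did not overlap (18.4%). RG1 and PBS1 are the arrays that change sides. On PBS1 the levels of S100a8, S100a9, Lcn2, Lrg1 and Saa3 lay with the other PBS arrays, and those of Saa1 and Saa2 lay with RG2 and RG3.

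**Figure D2:**
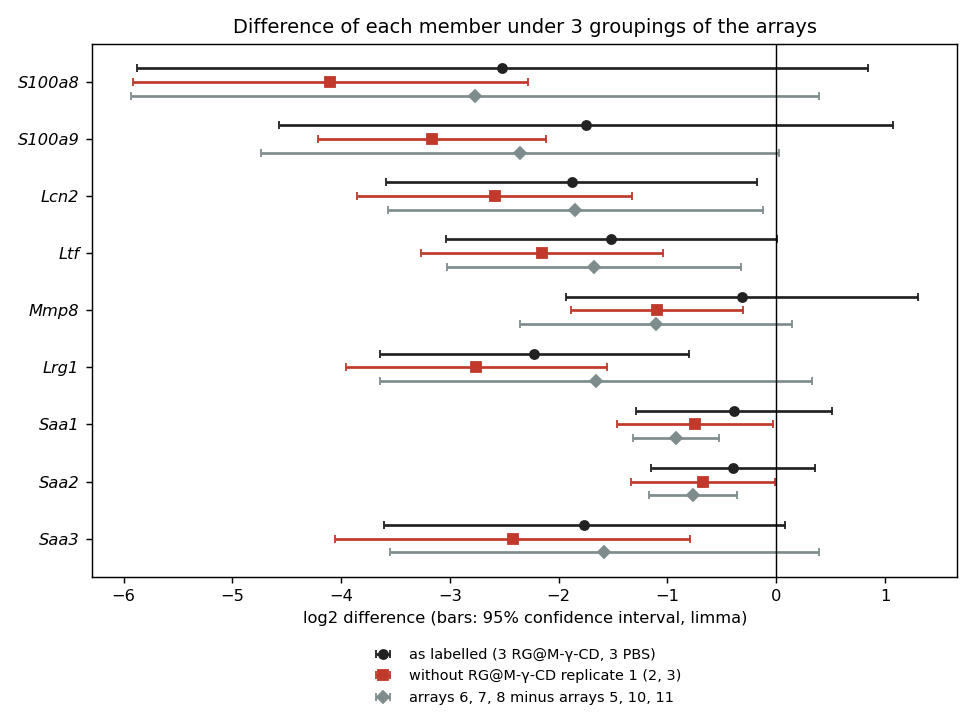
Log2 difference of each tested member with its 95% confidence interval from limma, as labelled (RG@M-γ-CD minus PBS, circles), without RG1 (squares), and as arrays 6, 7 and 8 minus arrays 5, 10 and 11 (diamonds). All points lie below 0, with RG2 and RG3 on the same side in each comparison. As labelled, the intervals of Lcn2 (−3.59 to −0.18) and Lrg1 (−3.65 to −0.80) are the 2 that do not reach 0.

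Over the 6 arrays every pair of members had a positive correlation. The 21 pairs that hold neither Saa1 nor Saa2 had a Pearson r of 0.628 to 0.984 (median 0.908). Saa1 and Saa2 had r = 0.99 with one another and 0.54 to 0.779 with the other members, a range that overlaps the first. By rank this order did not hold: Saa1 with Saa2 had a Spearman rho of 0.771, while Saa1 with Ltf, Mmp8 and S100a9 had 0.886 each. These are descriptions over 6 arrays of 2 groups, in which the arrays share a slide, and carry no p. The 5 other genes whose pattern was most like the mean of the members, among 793 with an SD of at least 1, were Prss22 (a secreted serine protease, r = 0.994), C130050O18Rik (r = 0.991), Asprv1 (an aspartic protease, r = 0.989), Trim10 (r = 0.985) and Sox11 (a transcription factor, r = 0.984). Asprv1 is also on the list of other neutrophil genes below. C130050O18Rik was dim, at −5.90 on RG2 and −4.98 on RG3, and Sox11 was at −4.37 on RG2. Mmp8 was not well above background at −4.85 on RG2 and −4.26 on RG3, so these likenesses rest in part on dim signals. In all, 19 of the 793 reached r of at least 0.95 and 5 reached −0.95 or below.

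The rest of the neutrophil program was looked at through 34 genes, of which 25 were tested. None passed the adjusted test, 22 had a negative difference and 3 a positive one, and the median was −0.74. Of the 25, 9 were bright on all arrays of 1 group only, 8 of them PBS, so the filter itself favors a difference there. Over the 16 that were well above background on all 6 arrays the median was −0.50, and with normexp background correction it was −0.32 over the 25. In the split by array numbers it was −1.02, and without RG2 −0.30. At an unadjusted p below 0.05, 1 of 25 was called (2.19% of all genes, 0.864% higher), Camp (cathelicidin, an antimicrobial granule peptide), with a difference of 0.54 (SE 0.21). Camp was tested through the RG@M-γ-CD group, where it was well above background on 3 arrays against 2 in PBS. The largest negative differences were those of Cxcr2, the chemokine receptor that draws neutrophils into tissue (−1.79, SE 0.92), and Fpr1, the formyl peptide receptor (−1.56, SE 1.04). Cxcr2 was at −2.86 on RG1, −6.46 on RG2 and −5.91 on RG3 and between −3.80 and −2.78 on the PBS arrays, the same array pattern as calprotectin. Both Cxcr2 and Fpr1 were well above background on 1 of the 3 RG@M-γ-CD arrays and on all 3 PBS arrays, so the sizes of these differences rest on dim signals. Chil3, a chitinase-like protein of macrophages and neutrophils, had a difference of 0.28 (SE 0.99). The other neutrophil markers did not all follow the members: Ly6g differed by −0.53, Retnlg by −1.11, Csf3r by 0.06 and Elane by −0.06, with an adjusted p of 1 each, and Mpo was dim in both groups and not tested. By the log2 of their summed level, the 6 tested defining neutrophil markers gave 5.23 to 6.29 on the RG@M-γ-CD arrays and 5.33 to 6.09 on the PBS arrays, a sum that Csf3r dominates.

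Of 25 other acute-phase genes 13 were tested, 10 with a negative and 3 with a positive difference, and the median was −0.24 (−0.25 in the split by array numbers). Without the filter on dim probes the median over all 25 was −0.091, and with normexp −0.16. None passed the adjusted test. Lbp, which carries lipopolysaccharide to CD14, was lower by 1.19 on the log2 scale (SE 0.43, unadjusted p = 0.0306), and Hp (haptoglobin, which binds free hemoglobin) differed by −1.16 (SE 0.75). Serpina3m (0.17) and Il1rn, the interleukin-1 receptor antagonist (0.11), had the largest positive differences. Fibrinogen, Crp, Apcs, Hpx and the orosomucoids, the classic liver products, were too dim to be tested. Cp (−1.07, SE 0.50) and Steap4 (−1.10, SE 0.54) had negative differences not far from those of Lbp and Hp. Among the complement genes C3 differed by 0.066 and Cfb by −0.24, which is the median of the list.

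Among 24 inducers and factors 18 were tested, 15 with a negative and 3 with a positive difference, and the median was −0.25 (−0.20 in the split by array numbers). Osm (oncostatin M, an interleukin-6 family cytokine) differed by −1.24 (SE 0.41, unadjusted p = 0.0204) and Il11, another member of that family, by −1.21 (SE 0.79). Il6 itself had a positive difference of 0.88 (SE 0.61), and Il6st, the receptor subunit gp130 that the family shares, one of 0.41 (SE 0.22). Osmr, the oncostatin M receptor, differed by −0.44 (SE 0.15, unadjusted p = 0.0254 in limma). Osm and Osmr were the 2 of 18 lower at an unadjusted p below 0.05 in limma, against 1.33% of all genes. They were also the 2 that were lower without overlap of the groups, against 2.19%. RG1 held the highest level of Il6 (−0.80), Il1b (1.42) and Tnf (0.42), and RG2 and RG3 the 2 lowest of Il1b and Tnf. The C/EBP genes differed little: Cebpb by −0.073 (SE 0.16) and Cebpd by −0.28 (SE 0.18). Of 13 receptors and partners of the member proteins 12 were tested, 7 with a negative and 5 with a positive difference and a median of −0.054. Itln1 (intelectin 1, a lectin of goblet and Paneth cells that binds lactoferrin) differed by −1.35 (SE 0.75) and Cd14, a coreceptor of Tlr4, by −0.41 (SE 0.17), against 0.28 for Lrp1 and 0.70 for Cd36. None of the genes in these lists passed the adjusted test.

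**Figure D3:**
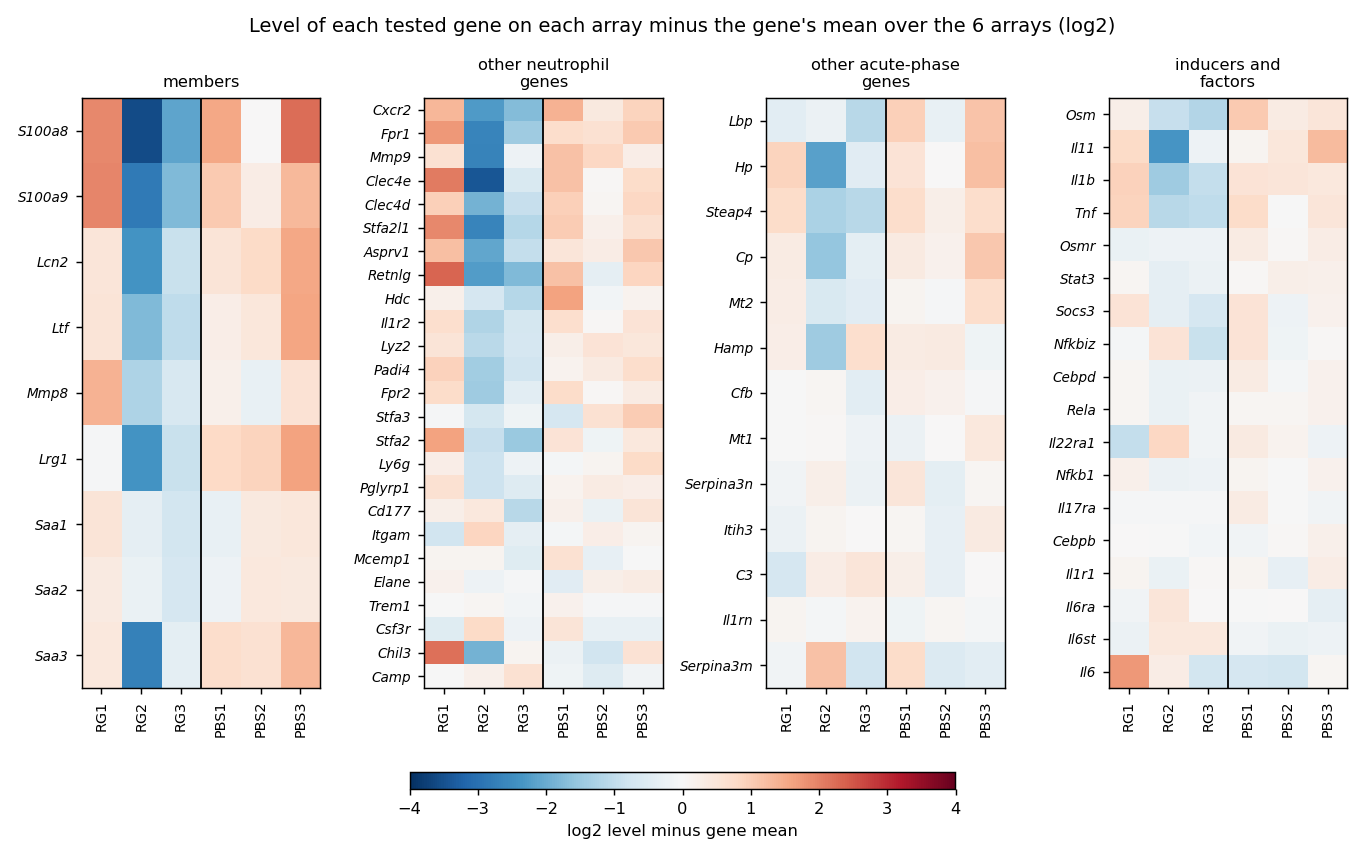
Level of each tested gene on each array minus its mean over the 6 arrays (log2, blue low and red high), for the members and for the other neutrophil genes, the other acute-phase genes and the inducers and factors, each list other than the members sorted by its difference between the labelled groups. The members and most of the upper neutrophil genes are blue on RG2 and RG3, and on RG1 they are near white (Lrg1, Stfa3) or red, whereas Csf3r, Elane and Camp do not show this pattern. The sort itself puts genes that are lower in RG@M-γ-CD at the top, and 8 neutrophil genes passed the filter through PBS only, so nothing is read from the upper genes.

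Markers of several other cell types also differed between the arrays. The 9 macrophage and monocyte markers all had a negative difference (median −0.47), with a log2 summed level of 7.29 on RG1, 6.45 on RG2, 6.86 on RG3 and 7.18 to 7.64 on the PBS arrays. Ly6c2 dominates this sum, while Cd68, C1qa, C1qb and Ccr2 were highest on RG1. All 5 smooth muscle markers had a positive difference (median 0.95) and were highest on RG2 and RG3, where the members were lowest, and lowest on RG1. The 11 colon epithelium markers had a median difference of 0.011 and a summed level of 9.56 to 10.2 on the RG@M-γ-CD arrays and 9.67 to 10.4 on the PBS arrays. Of the 11 squamous epithelium markers 6 were tested, 4 with a negative difference (median −0.37), and Krt5 was not among them. Their log2 summed level was 3.72 to 4.56 on the RG@M-γ-CD arrays and 4.42 to 4.82 on the PBS arrays, lowest on RG2 and next lowest on RG3. Krt14 added most to this sum and was itself lowest on RG2 (2.42) and RG3 (3.52). Krt6a differed by −0.73 (unadjusted p = 0.00745 in limma), without overlap of the groups. Of all genes 1.33% were lower at an unadjusted p below 0.05 in limma, and 2.19% were lower without overlap. Krtdap (0.45) and Krt10 (0.046) had positive differences, and Trp63 was highest on RG2 (2.35). Of the remaining lists, the 4 erythroid markers tested had a positive difference (median 0.46) and the 4 lymphocyte markers a negative one (median −0.44). Of the exocrine pancreas markers Ctrb1 alone was tested, with 0.61 on PBS2 and −4.75 to −3.10 on the other arrays. None of these markers passed the adjusted test, and their part in the member levels was not tested.

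**Figure D4:**
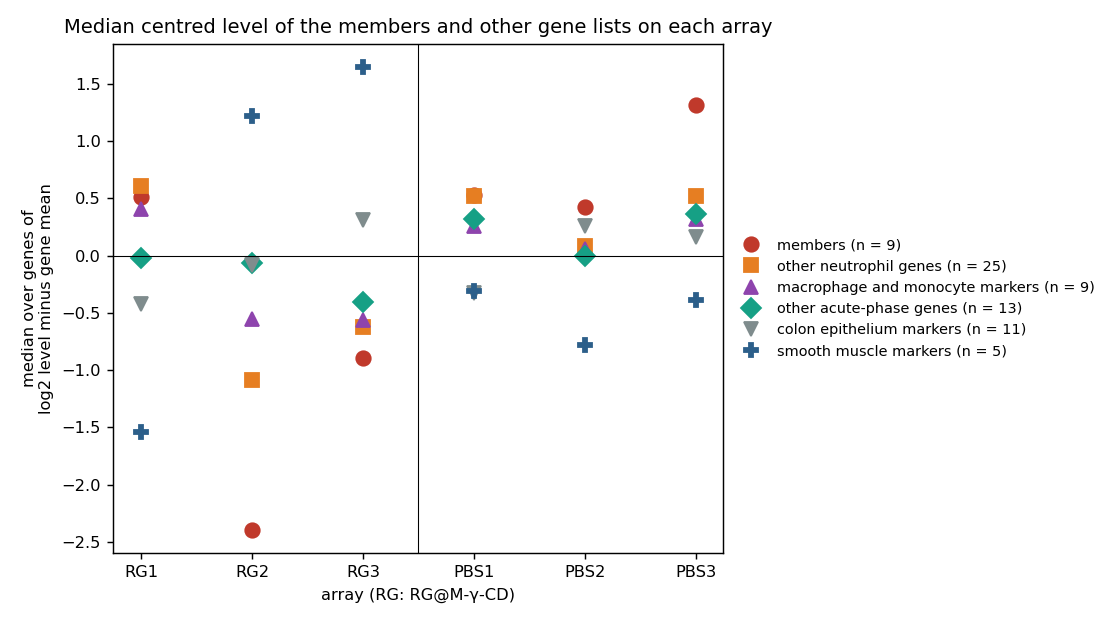
Median over genes of the level minus the gene's mean over the 6 arrays (log2), for the members and 5 other gene lists, on each array. The members are at −2.39 on RG2 and −0.90 on RG3 and above 0 on RG1 and on the 3 PBS arrays, and the smooth muscle markers are at 1.22 on RG2, 1.64 on RG3 and −1.54 on RG1.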

How the data were processed

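The authors hybridized cyanine-3 labeled cRNA of colon tissue from 6 mice to one-color Agilent mouse arrays. Deposited intensities come from Agilent Feature Extraction 10.7.1.1 (per the file headers), corrected for background and not normalized between arrays. The authors also deposited a table of log2 values, used as an alternative. Its columns share one minimum (2.04), median (4.84) and maximum (18.1), as after quantile normalization, and each follows its own array's intensities (r of at least 0.999 across probes). Its processing is not given in the sources used here beyond the software.

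The scanner output was read in R 4.3.3 by the data.table package, version 1.17.8. Control and outlier spots were left out, each array's 75th percentile was subtracted from its log2 values, and a probe was kept if the 3 arrays of either group all showed it well above background. Each gene was represented by its brightest such probe and fitted with limma 3.58.1 (lmFit and eBayes, two-sided, Benjamini-Hochberg over 19090 genes, threshold 0.05), after the fit had been tested on simulated data. Precision is limited by 3 arrays per group, for which the smallest two-sided p of an exact permutation test is 0.1. Symbols were taken by accession for 32994 of 56605 gene probes, and 23611 kept the scanner name. Members and lists were chosen with earlier results of these data known. Named are the members, per list the 2 largest rises and falls, the 5 genes most like the members, and cell type markers; other list genes in the text were named after their values were seen. Promoters were aligned with Biopython 1.88.

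Alternatives were normexp (offset 50), quantile normalization, the authors' table, dim probes kept or required to be bright on all 6 arrays, averaging a gene's probes, outliers kept, a replicate block, the slide row as a block, the methods' t-test, the heat map grouping and leaving out each array. A fit of all probes was added after seeing the data. Other treatment groups and assays of the study were not analysed here.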

Additional observations from a re-analysis of the deposited data

How the results depend on the processing

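Of 152 member differences computed under 17 other settings 149 were negative and 1 passed the adjusted threshold, S100a9 without RG1 (−3.17). The 3 that turned were Mmp8 without RG2 (0.22, its range being −1.09 to 0.22 over the arrays left out) and, with the slide row as a block, Saa1 (0.091) and Saa2 (0.0013). The row of PBS2 and PBS3 holds no RG@M-γ-CD array, so with that block PBS1 is the only control in the difference. The cause for Mmp8 was not tested. The heat map grouping called 5 genes over all, and leaving out 1 array gave 0 to 202 genes and 0 to 1 members, the highest without RG1. Leaving out 1 array moved the median of the members from −2.43 (without RG1) to −0.86 (without RG2), of the other neutrophil genes from −1.29 to −0.30, of the acute-phase genes from −0.33 to −0.16, of the inducers from −0.32 to −0.13 and of the receptors from −0.14 (without PBS1) to 0.034 (without RG2). With the slide row as a block the inducers were at −0.41 and the acute-phase genes at −0.48, and the receptors were at −0.19 in the heat map grouping.

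At a fold of 2 and an unadjusted p of 0.05, limma counted 107 genes and 2 members. With normexp 46 genes were counted, without the filter 327, and by the methods' t-test 45 genes and 1 member. The heat map grouping gave 1133 genes, and leaving out RG1 gave 1141 genes and 7 members. Leaving out any other single array left 1 member. The count with the slide row as a block is left out, since PBS1 is then the only control. The replicate numbers did not pair the samples (correlations of same-numbered deviations −0.25, −0.233 and 0.136, with 0 of 3 best with their own number). With the replicate block 0 genes and 0 members passed and the members' median stayed at −1.75. Where a lone array is left out, its group keeps 2 arrays. Dim probes limit Mmp8 and Ngp.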
